A study of Sus scrofa with 6 samples.

Results

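Annexins are cytosolic proteins that bind acidic phospholipids, phosphatidylserine above all, when calcium rises. The terminal complement components assemble into a pore in the plasma membrane through which calcium enters, and nucleated cells close or shed the damaged membrane with the help of annexins, calpains, S100 proteins, the ESCRT machinery and exocytosed lysosomes. Sertoli cells, the somatic nurse cells of the seminiferous tubule, are known for surviving exposure to xenogeneic serum. The question addressed here is whether the RNA of the annexin genes differed between neonatal pig Sertoli cells (NPSC) at baseline and after exposure to human complement. The members were named by symbol (ANXA1, ANXA2, ANXA3, ANXA4, ANXA5, ANXA6, ANXA7, ANXA8, ANXA10 and ANXA11) and found through the table that pairs Ensembl pig identifiers with symbols. Of these 10 symbols, 8 had an identifier among the 25149 genes listed, while ANXA3 and ANXA8 were paired with no identifier and were not analysed here.

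The cells were wild-type NPSC isolated from testes of Duroc-Landrace pigs a few days old, collected by litter and cultured in DMEM with fetal bovine serum. Baseline NPSC (3 libraries) received more DMEM, and complement NPSC (3 libraries) received pooled human AB serum with complement preserved, so that serum and medium were mixed 1:1, for 90 min. All groups carried the fetal bovine serum of the culture medium, and no heat-inactivated serum group is among the samples, so active complement and the other constituents of human serum cannot be told apart. Whether the plates came from separate litters is not stated for each library, so the p-values measure only the spread between these plates.

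Counts on genes came to between 6796183 and 8371923 in baseline NPSC and between 3641518 and 6403606 in complement NPSC. Olfactory receptor genes have no known role in these cells, and counts on 48 of them served as a measure of counts unrelated to expressed transcripts. Their density was 2.12, 1.33 and 1.30 CPM per kb of exon in baseline replicates 1, 2 and 3 (CPM, counts scaled to the TMM-normalized library size) and 3.51, 3.85 and 1.68 in complement replicates 1, 2 and 3. The Sertoli cell markers summed to 1502 to 2586 CPM per kb over the 6 libraries, the Leydig cell markers to 803 to 1293 and the peritubular myoid cell markers to 1519 to 2836. VIM alone gave 1003 to 1785 of the Sertoli cell sum and INSL3 alone 690 to 1125 of the Leydig cell sum, so the sums do not rank the cell types. Endothelial markers summed to 65.8 to 142 CPM per kb, germ cell markers to 95.6 to 144, epithelial markers to 76.8 to 109 and macrophage markers to 30.8 to 60.5. All 2451 genes on unplaced scaffolds had 0 counts in all 6 libraries, so a 0 there gives no level; the markers CYP11A1, MYH11 and CDH1 are among them. Of 10 tested Sertoli cell markers, 4 (INHA, CLDN11, GATA4 and WT1) were lower in every complement library than in any baseline library, where 8.14% of the tested genes were, as were 3 of 4 tested Leydig cell markers and 0 of 6 tested myoid markers. Of the remaining 6 Sertoli cell markers, VIM, SOX9 and FSHR had log2 fold changes of −0.39, −0.28 and −0.60, and DHH, NR0B1 and DMRT1 of 0.63, 0.43 and 0.12. At an unadjusted p under 0.05 in edgeR, 5 of the 10 were lower (the 4 above and FSHR) and 1 was higher (DHH). Of all tested genes, 4.28% were lower and 10.9% higher at that threshold. The part of these cell mixtures in the annexin values was not tested, and in bulk RNA fewer cells of a type and less RNA per cell cannot be told apart.

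The 8 annexins covered a range of over 2 orders of magnitude in level per length. ANXA2, which forms a heterotetramer with S100A10 and binds plasminogen at the cell surface, had the highest level. It lies on chromosome 1 from 123368016 to 123414408 on the plus strand (ENSSSCG00000004578, 14 exon blocks with 1733 bp), in the genome build of the files, which they do not name. Its level was 490, 707 and 809 CPM per kb at baseline and 479, 485 and 709 after complement, above that of 99.6% of the tested genes on average. The lowest baseline value lay beside the lower complement values and the highest complement value beside the middle baseline value, so the groups overlapped. These levels rest on 3520 to 10646 counts per library. Near its 3′ end ANXA2 shares 173 exonic bases with the exons of an unnamed gene on the other strand (ENSSSCG00000004579), which had 17 to 46 counts per library; reads there could be assigned to either gene or to neither if strand was not used.

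ANXA5, which forms a lattice on phosphatidylserine and is used as a probe for dying cells, followed. It lies on chromosome 8 from 109609049 to 109642588 (ENSSSCG00000009097). Its level was 148, 225 and 250 CPM per kb at baseline and 151, 163 and 230 after complement. As for ANXA2, baseline replicate 1 and complement replicates 1 and 2 were low and the other libraries high. The ratio of ANXA2 to ANXA5, per kb, stayed between 2.97 and 3.31 in the 6 libraries, while the level of ANXA2 itself differed 1.65-fold within baseline NPSC and 1.48-fold within complement NPSC.

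ANXA6, ANXA1, ANXA7 and ANXA11 formed a middle group. ANXA6, whose protein carries a duplicated annexin core, lies on chromosome 16 from 78094269 to 78115994 (ENSSSCG00000017089) and had 68.0, 82.4 and 111.5 CPM per kb at baseline and 68.8, 53.8 and 92.4 after complement. ANXA1, the glucocorticoid-induced annexin that signals through formyl peptide receptors when released, lies on chromosome 1 from 252989614 to 253007803 (ENSSSCG00000005267). It had 49.1, 74.4 and 91.4 CPM per kb at baseline and 53.0, 46.6 and 77.3 after complement. In both genes complement replicate 2 was the lowest library and baseline replicate 3 the highest, and the conditions overlapped. ANXA7, also known as synexin, lies on chromosome 14 from 82330744 to 82360270 (ENSSSCG00000010299) and had 42.5, 50.1 and 52.6 CPM per kb at baseline and 34.8, 37.5 and 46.4 after complement. It came closest to separate groups, as complement replicate 3 alone lay above a baseline library. ANXA11, which has a long proline-rich tail and binds the calcium sensor ALG-2, lies on chromosome 14 from 88448385 to 88490746 (ENSSSCG00000010331) and had 37.7, 36.4 and 47.2 CPM per kb at baseline and 34.3, 32.0 and 46.6 after complement.

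ANXA4 and ANXA10 were low. ANXA4, a membrane-binding annexin known mainly from epithelia, lies on chromosome 3 from 76060039 to 76128752 (ENSSSCG00000008336) and was at 9.02, 7.35 and 11.9 CPM per kb before and 11.1, 9.63 and 7.67 after exposure, from 85 to 190 counts. The counts expected on its exons from the olfactory receptor density were 22.3% of its counts over the 6 libraries and reached 40.0% in complement replicate 2. ANXA10, an annexin of the gastric epithelium, lies on chromosome 14 from 22604226 to 22642292 (ENSSSCG00000030058). It had 17, 10 and 15 counts at baseline and 12, 23 and 11 after complement, or 2.48, 1.56 and 1.99 CPM per kb and 2.69, 5.53 and 1.93 CPM per kb. The expected background was 14.5, 8.53 and 9.82 counts in the baseline libraries and 15.6, 16.0 and 9.59 in the complement libraries. In all 6 libraries the exact 95% Poisson interval of the ANXA10 count held the expected background. For 23 counts in complement replicate 2 the interval was 14.6 to 34.5. ANXA10 was thus not told apart from this estimate. The estimate is an average over genes, and some genes lie below it: expected background was 772% of the counts of PLA2G4B and 153% of those of NR0B1. For each of the other 7 annexins the interval lay above the background in all 6 libraries; these intervals cover counting error only.

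**Figure D1:**
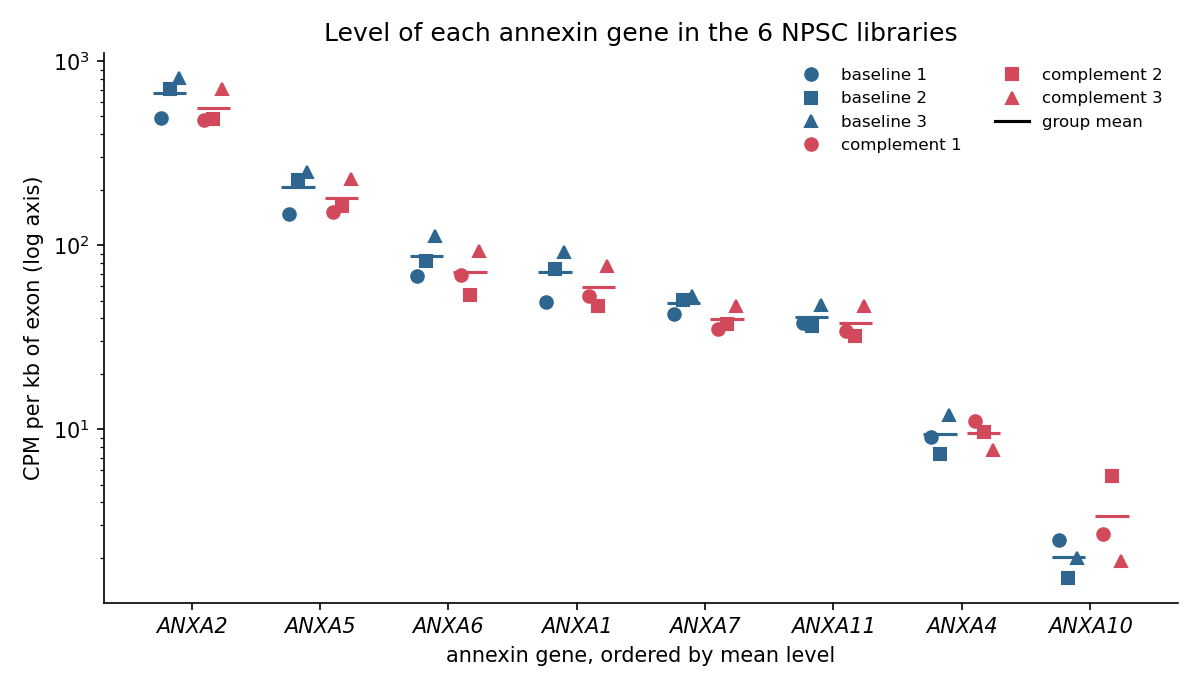
Level of each annexin gene in CPM per kb of exon (log axis), ordered by the mean over the libraries; symbols are the 6 libraries (blue baseline NPSC, red complement NPSC, shape by replicate number) and bars the group means. Levels run from 809 for ANXA2 in baseline replicate 3 to 1.56 for ANXA10 in baseline replicate 2, and red and blue symbols overlap for every gene.

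By mean level per kb the order was ANXA2, ANXA5, ANXA6, ANXA1, ANXA7, ANXA11, ANXA4 and ANXA10. Within each library this order held throughout, with the exception of complement replicate 3, in which ANXA7 and ANXA11 were level (ratio 0.996). Across libraries, ANXA6 and ANXA1 overlapped in both conditions and ANXA7 and ANXA11 likewise, while ANXA1 and ANXA7 overlapped in baseline NPSC only. ANXA2, ANXA5, ANXA4 and ANXA10 did not overlap with a neighbour in either condition. Of the summed annexin level per kb, ANXA2 took 58.8% ± 0.907 (SD, n = 3) in baseline NPSC and 58.04% ± 0.579 (SD, n = 3) in complement NPSC. ANXA5 took 18.2% ± 0.767 (SD, n = 3) and 18.9% ± 0.756 (SD, n = 3), and ANXA6 took 7.70% ± 0.640 (SD, n = 3) and 7.45% ± 0.903 (SD, n = 3). These shares do not depend on how libraries are scaled. The summed level varied more, from 847 to 1376 CPM per kb in baseline NPSC and from 833 to 1211 in complement NPSC.

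No annexin passed the test between the conditions. With edgeR's quasi-likelihood F-test and Benjamini-Hochberg adjustment over all 17512 tested genes, 0 of 8 annexins had an adjusted p under 0.05, where 0.103% of the tested genes did, and 0 of 8 had an unadjusted p under 0.05, where 15.2% did. DESeq2's Wald test called 0 of the 7 annexins to which it gave an adjusted p (ANXA10 had none), and 0.394% of all genes with one. The groups of none of the 8 annexins were free of overlap, against 17.1% of the tested genes. The median log2 fold change of the 8 annexins, complement over baseline, was −0.23, beside 0.02 for all tested genes, and 6 of 8 were below 0, beside 48.5% of the tested genes.

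ANXA2 averaged 669 ± 163 CPM per kb (SD, n = 3) in baseline NPSC and 557 ± 131 CPM per kb (SD, n = 3) in complement NPSC. This gave an edgeR log2 fold change of −0.26 with an SE of 0.32 (adjusted p = 0.648) and a 95% interval from −0.94 to 0.41. For ANXA5 it was −0.20 (SE 0.28, adjusted p = 0.701), with an interval from −0.79 to 0.40. ANXA1 averaged 71.6 ± 21.3 CPM per kb (SD, n = 3) and 59.0 ± 16.2 CPM per kb (SD, n = 3), with a fitted value of −0.28 (SE 0.26, adjusted p = 0.554), and ANXA6 gave −0.28 (SE 0.25, adjusted p = 0.536). ANXA7 had the smallest adjusted p of the family, 0.443, with 48.4 ± 5.28 CPM per kb (SD, n = 3) in baseline NPSC, 39.6 ± 6.07 CPM per kb (SD, n = 3) after exposure, and was fitted at −0.29 (SE 0.20, interval −0.71 to 0.13). ANXA11 gave −0.10 (SE 0.21, adjusted p = 0.798) and ANXA4 gave 0.00 (SE 0.26, adjusted p = 0.999). For ANXA10, which is at the expected background, the fitted value was 0.72 (SE 0.52, adjusted p = 0.467). The intervals of 7 of 8 annexins, all but that of ANXA10, lay within a log2 fold change of −1 to 1, as did those of 55.7% of the tested genes, so changes of 2-fold or more lie outside them.

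The fitted values depended on single libraries. Without complement replicate 3 they were −0.50 for ANXA2, −0.43 for ANXA5, −0.54 for ANXA6, −0.55 for ANXA1, −0.45 for ANXA7, −0.32 for ANXA11 and 0.98 for ANXA10, and the adjusted p was 0.0797 for ANXA7, which over all alternatives ranged up to 0.998. Of the 8 annexins, 3 (ANXA1, ANXA6 and ANXA7) then had an unadjusted p under 0.05 in edgeR, as did 39.2% of the genes tested without that library. Without baseline replicate 3 those of ANXA2, ANXA5, ANXA6 and ANXA1 were −0.12, −0.06, −0.08 and −0.08 and that of ANXA11 was 0.01. With the log2 of the olfactory receptor density as a covariate in the edgeR fit, ANXA2, ANXA5, ANXA6, ANXA1 and ANXA11 turned to 0.27, 0.34, 0.23, 0.35 and 0.21 and ANXA7 was at 0.00, again with no call.

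**Figure D2:**
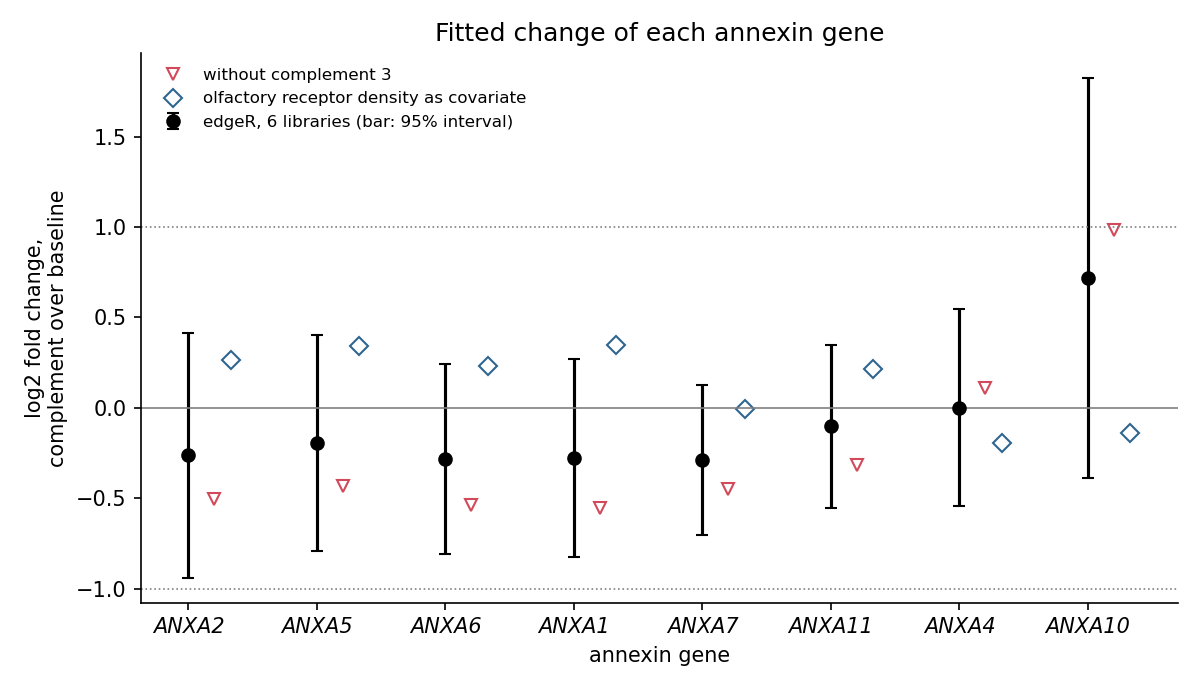
Log2 fold change of each annexin gene, complement over baseline NPSC: black points and bars are the edgeR estimate from 6 libraries and its 95% interval, red triangles the estimate without complement replicate 3 and blue diamonds the estimate with olfactory receptor density as a covariate; dotted lines mark −1 and 1. Every black interval crosses 0, and the triangle and diamond of ANXA1, ANXA2, ANXA5, ANXA6 and ANXA11 lie on opposite sides of 0, as do those of ANXA4 and ANXA10.

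Libraries of 1 condition differed widely among themselves. For ANXA1, ANXA2, ANXA5, ANXA6 and ANXA7, the 3 libraries with the lowest olfactory receptor density (baseline replicates 2 and 3 and complement replicate 3) were each above all 3 other libraries. This order was met by 5 of 8 annexins, where 20.0% of the tested genes met it. ANXA10 showed the opposite order, as did 22.1% of the tested genes, and ANXA4 and ANXA11 neither. Within baseline NPSC, the highest library exceeded the lowest by 1.86-fold for ANXA1, 1.69-fold for ANXA5, 1.65-fold for ANXA2 and 1.64-fold for ANXA6, while the mean of complement NPSC was 0.824, 0.873, 0.834 and 0.821 times that of baseline NPSC. ANXA7 and ANXA11 varied less within baseline NPSC, by 1.24-fold and 1.30-fold. The part of the olfactory receptor density in this order was not tested beyond the covariate above. Expected background reached at most 0.795% of the counts of ANXA2 in any library, 2.36% of those of ANXA5, 7.16% of those of ANXA6, 8.26% of those of ANXA1 and 10.3% of those of ANXA7.

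**Figure D3:**
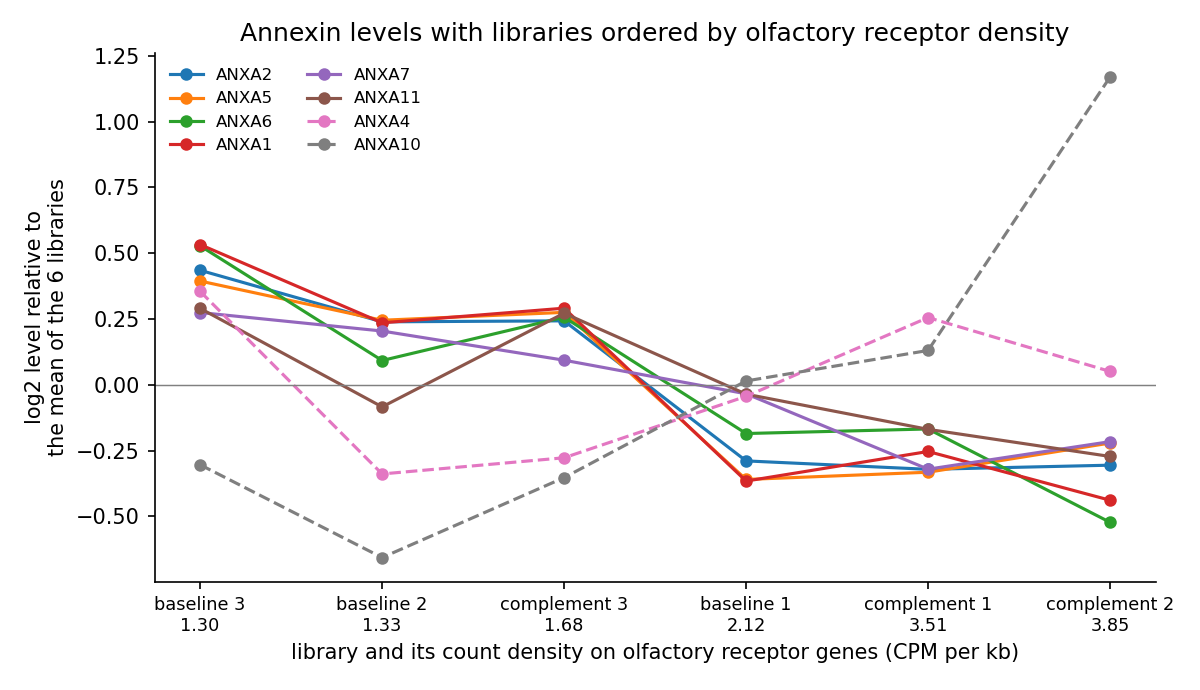
Log2 level of each annexin relative to its mean over the 6 libraries, with libraries ordered along the x axis by their count density on olfactory receptor genes (values under the names, CPM per kb); solid lines are the 6 more abundant annexins and dashed lines ANXA4 and ANXA10. ANXA1, ANXA2, ANXA5, ANXA6 and ANXA7 lie above 0 in the 3 left libraries and below 0 in the 3 right ones, and libraries of both conditions stand on each side.

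Other genes shared this course. Over the 6 libraries, the log2 CPM of ANXA2 correlated most strongly with BMS1 and AIDA (Pearson's r 0.997 and 0.994) and with SMAD5 (0.994), and 284 of 11046 genes with a symbol had an r over 0.95. ANXA7 correlated most with NOC3L, ARFGEF2 and EXOSC9 (0.999, 0.997 and 0.997), and 588 genes had an r over 0.95. These are descriptions over 6 libraries that differ in depth and background. Within the family the r of ANXA2 was 0.987 with ANXA5, 0.985 with ANXA1, 0.919 with ANXA7 and 0.915 with ANXA6, and it was −0.16 with ANXA4 and −0.71 with ANXA10.

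S100A10, which binds the amino-terminal tail of ANXA2 and bridges a pair of ANXA2 molecules, was the most abundant of the listed S100 genes that had a level. It lies on chromosome 4 and had 82.1, 165.6 and 166.3 CPM per kb at baseline and 116, 133 and 176 after complement (log2 fold change 0.04, SE 0.28, adjusted p = 0.948, edgeR). The ratio of ANXA2 to S100A10 within a library, which needs no scaling between libraries, was 5.97, 4.27 and 4.87 at baseline and 4.13, 3.65 and 4.02 after complement. All 3 complement libraries thus had a lower ratio than any baseline library, with means of 5.04 ± 0.864 (SD, n = 3) and 3.93 ± 0.255 (SD, n = 3). The log2 difference was −0.34 in a two-sided exact permutation test (p = 0.1), and 0.1 is the smallest p that this test allows with 3 against 3 libraries, so the test cannot place the difference past 0.05. It rests in part on baseline replicate 1, where S100A10 was lowest: without it the difference was −0.21, with complement still below baseline in all libraries.

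**Figure D4:**
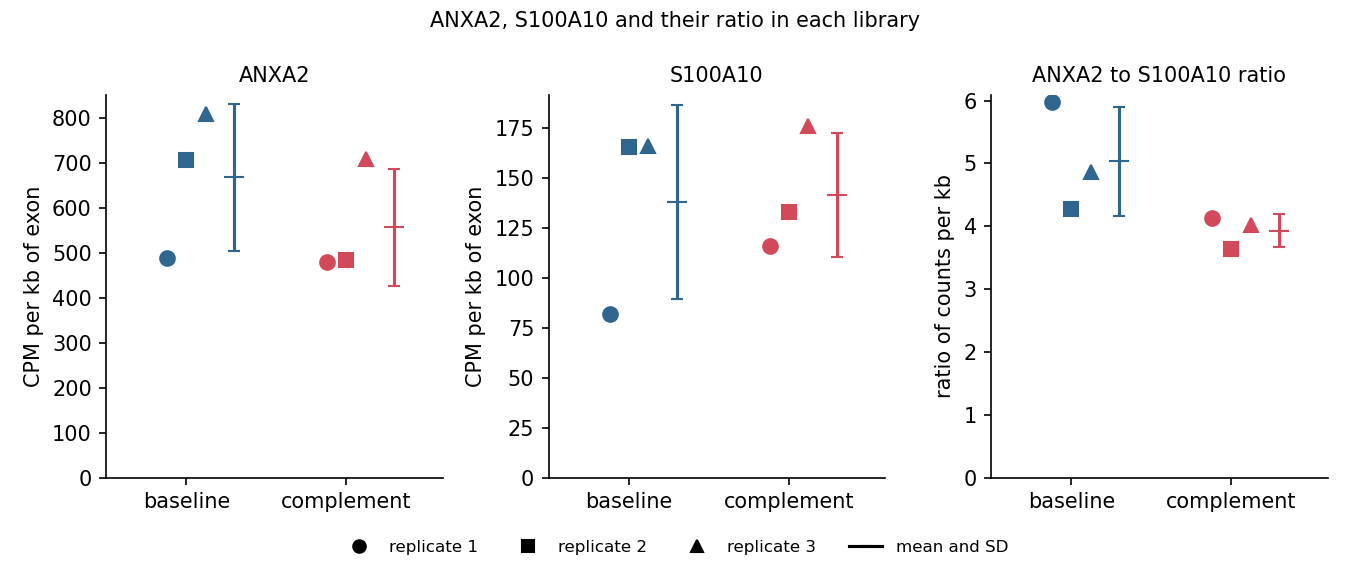
ANXA2 and S100A10 in CPM per kb of exon and the ratio of their counts per kb in each library of baseline NPSC (blue) and complement NPSC (red); bars are the mean and SD of 3 libraries. The 2 genes overlap between conditions, while the ratios lie from 3.65 to 4.13 in complement NPSC and from 4.27 to 5.97 in baseline NPSC.

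S100A11, the partner of ANXA1, had 63.2 to 117 CPM per kb in baseline NPSC and 63.8 to 90.2 after exposure (log2 fold change −0.23, adjusted p = 0.593, edgeR). S100A1 gave −0.39 (adjusted p = 0.473), and S100A6, a partner of ANXA11, lies on an unplaced scaffold, where the 0 counts give no level. Of 8 S100 and AHNAK genes listed, 5 were in the files and 4 were tested, and 0 had an unadjusted p under 0.05, beside 15.2% of all tested genes. Of the remaining annexins, ANXA9 had 4.35 to 7.23 CPM per kb in baseline NPSC and 6.52 to 13.6 after exposure, which overlap, and was fitted at 0.75 (adjusted p = 0.312, edgeR) with an unadjusted p under 0.05, and expected background was 27.2% of its counts. It passed the test in 1 of 13 alternatives, a replicate block in which edgeR called 14.4% of the tested genes (adjusted p = 0.0311), and was fitted at 0.05 with the olfactory receptor covariate (adjusted p = 0.996). ANXA13 had 2.64 to 5.24 CPM per kb over the 6 libraries, with expected background at 58.03% of its counts.

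The other genes of membrane repair gave 0 calls among 43 tested in 5 lists by edgeR's adjusted p, and 0 by DESeq2. At an unadjusted p under 0.05, 1 was higher and 6 were lower in complement NPSC, where 10.9% and 4.28% of the tested genes were. The count of 7 depended on single libraries, and was 17 without complement replicate 3 (39.2% of all genes), 12 without baseline replicate 1 (24.5%), 5 without complement replicate 1 (6.96%), 3 without baseline replicate 2 (8.47%) or 3 (7.12%) and 2 without complement replicate 2 (5.39%). With a replicate block in edgeR, these 7 were the genes called among the 43 (adjusted p under 0.05), where 14.4% of the tested genes were called. Of the 7, TRIM72 was the higher gene. TRIM72 encodes MG53, which tethers repair vesicles in muscle, and had 9.39, 10.02 and 8.53 CPM per kb at baseline and 13.2, 16.6 and 12.9 after complement (log2 fold change 0.61, SE 0.24, adjusted p = 0.295), with 18.8% of its counts expected as background. Groups free of overlap in the higher direction were found for 8.95% of the tested genes. The calpain small subunit gene CAPNS1 was the most abundant of the calpain, ferlin, caveola and patch genes at 262 to 388 CPM per kb over the 6 libraries (log2 fold change −0.26, adjusted p = 0.572), and the endocytic ATPase genes EHD1 and EHD2 followed at −0.24 and −0.31 (adjusted p = 0.590 and 0.555). The ferlin genes DYSF and MYOF, whose proteins fuse repair vesicles, gave 0.25 and −0.25 (adjusted p = 0.549 and 0.640). CAPN2 and FER1L5 lie on unplaced scaffolds and have no level here.

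Genes of the lysosome, the organelle that fuses with wounded membrane, held 4 of the 6 lower genes, among 10 tested. Of all tested genes, 4.28% were lower at an unadjusted p under 0.05 in edgeR. LAMP1, the main glycoprotein of the lysosomal membrane, had 135, 116 and 160 CPM per kb at baseline and 76.8, 68.7 and 99.2 after complement, and every complement library lay below every baseline library (log2 fold change −0.75, SE 0.24, adjusted p = 0.267). Cathepsin L (CTSL) had 25.8, 22.0 and 30.8 CPM per kb and then 18.8, 12.5 and 17.0 (log2 fold change −0.70, SE 0.22, adjusted p = 0.267). Acid ceramidase (ASAH1) had 30.6, 25.5 and 33.1 CPM per kb and then 22.5, 15.5 and 21.5 (log2 fold change −0.58, SE 0.20, adjusted p = 0.271). For LAMP1, CTSL and ASAH1 the groups did not overlap, lower in complement NPSC, as for 8.14% of the tested genes. Cathepsin B (CTSB), the most abundant gene of the list, had 231, 230 and 335 CPM per kb and then 148, 133 and 230 (log2 fold change −0.64, adjusted p = 0.314), and its complement replicate 3 lay at the level of the lower baseline libraries. Without complement replicate 3, where 10.1% of the genes tested then were called, LAMP1, CTSB and LAMP2 passed the test (log2 fold change −0.94, −0.95 and −0.66, adjusted p = 0.0382, 0.0385 and 0.0468, edgeR). Over all alternatives the adjusted p ran from 0.00513 to 0.794 for LAMP1, from 0.0346 to 0.959 for CTSB and from 0.0468 to 0.98 for LAMP2. With the olfactory receptor covariate, LAMP1, CTSL, ASAH1 and CTSB were fitted at −0.49, −0.60, −0.49 and −0.16. The median log2 fold change of the 10 lysosomal genes was −0.36. The macrophage markers, whose cells are rich in lysosomes, summed to 47.6, 42.8 and 60.5 CPM per kb at baseline and 49.3, 49.1 and 30.8 after complement, and 2 of 6 (LYZ and CSF1R) had an unadjusted p under 0.05 in the lower direction, where 4.28% of the tested genes did, while MRC1 and CD68 were fitted at 0.31 and 0.11; their part in the lysosomal values was not tested.

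The ESCRT genes, whose products pinch off wounded membrane, held the other 2 lower genes among 9 tested. At that unadjusted p under 0.05 in edgeR, 4.28% of all tested genes were lower. CHMP2B had 14.6, 18.1 and 19.1 CPM per kb at baseline and 11.3, 11.3 and 13.4 after complement (log2 fold change −0.52, SE 0.20, adjusted p = 0.292). Its groups did not overlap, nor did those of CHMP1A and CHMP6, all lower after complement, which makes 3 of 9 beside 8.14% of the tested genes. IST1 had 28.7, 38.4 and 36.3 CPM per kb and then 25.6, 19.5 and 29.6, which overlap (log2 fold change −0.46, adjusted p = 0.312). The most abundant gene of the list, CHMP3, gave −0.28 (adjusted p = 0.462), VPS4A, the ATPase that takes ESCRT-III apart, gave −0.22 (adjusted p = 0.583), and the median over the list was −0.28. Among the annexin receptor, scrambling and phospholipase A2 genes, 6 were tested, 0 had an unadjusted p under 0.05, beside 15.2% of all tested genes, and the median was 0.06. The groups of 1 of the 6 did not overlap, beside 17.1% of the tested genes: PLA2G2A, a secreted phospholipase A2, had 5.51, 2.94 and 2.502 CPM per kb at baseline and 6.57, 8.56 and 5.86 after complement (log2 fold change 0.93, adjusted p = 0.370), with 42.7% of its counts expected as background. The lipid scramblase gene ANO6 was the most abundant at 47.8 to 80.4 CPM per kb (log2 fold change −0.29, adjusted p = 0.517), followed by PLSCR3 at −0.06 (adjusted p = 0.885). PLA2G4A, which encodes a cytosolic phospholipase A2, gave 0.04 (adjusted p = 0.939). The formyl peptide receptor genes were paired with no identifier and were not analysed here.

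**Figure D5:**
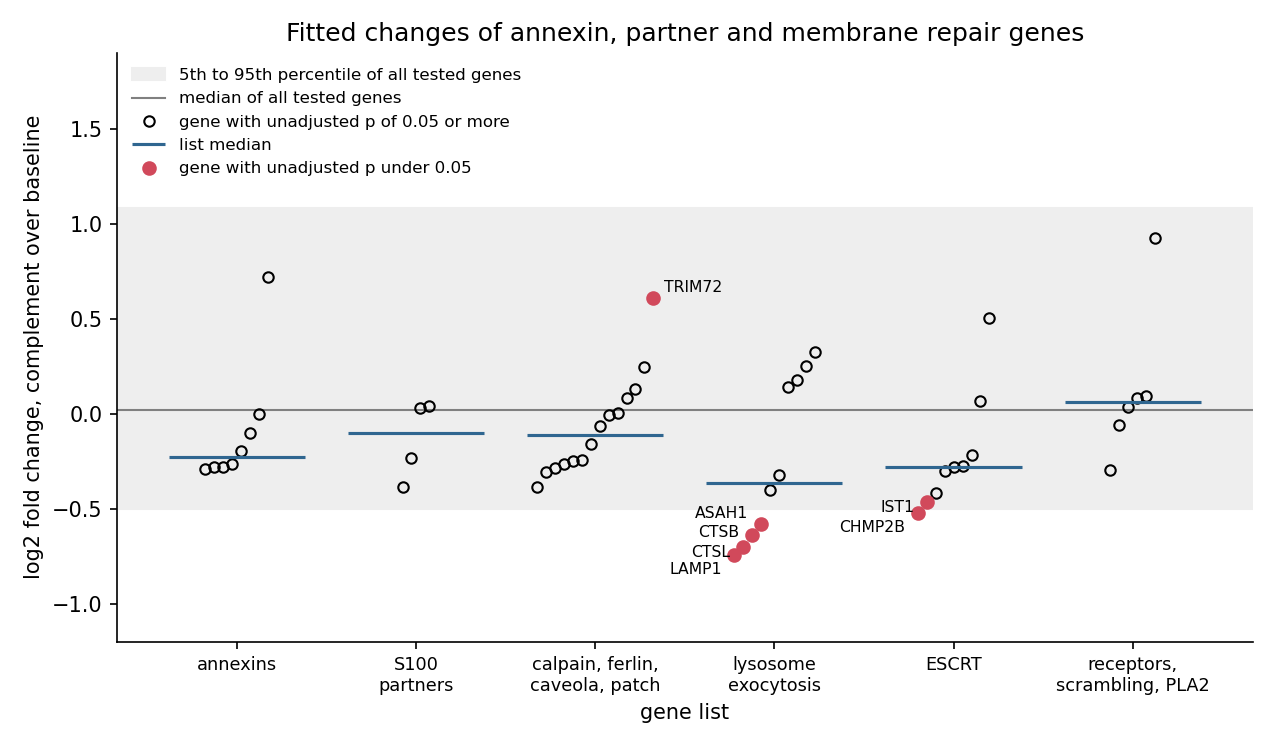
Log2 fold change, complement over baseline NPSC, of each tested gene in the annexin list and the 5 partner and membrane repair lists; the grey band spans the 5th to 95th percentile of all tested genes (−0.50 to 1.08), blue bars are list medians, and filled red points have an unadjusted p under 0.05. The annexin points lie from −0.29 to 0.00 with the exception of ANXA10 at 0.72, and 4 red points lie among the lysosomal genes.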

How the data were processed

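RNA of 6 plates was sequenced by a commercial service; which of its library types was used is not stated for these samples. The files deposited by the authors hold raw counts for each gene beside its exon coordinates and summed exon length. The submitters' processing notes name Trimmomatic 0.36, STAR 2.5.2b and featureCounts of Subread 1.5.2; the genome build and strand setting are not given in the sources used here. Of 25149 Ensembl genes, 11804 were paired with a symbol, and 17512 passed filterByExpr.

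Counts were fitted with edgeR 4.0.16 in R 4.3.3 (TMM, glmQLFit, glmQLFTest, two-sided), with no covariate, and adjusted by Benjamini-Hochberg over all tested genes, with a call at an adjusted p under 0.05. The SE is the log2 fold change over the square root of F, and 95% intervals use the t distribution of the fit. Levels are CPM of the TMM-scaled library divided by exon length in kb; correlations use log2 CPM with a prior count of 2. Expected background is exon length times the count density on 48 olfactory receptor genes (45945 bp). The ratio of ANXA2 to S100A10 was compared with an exact permutation test.

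Alternatives were DESeq2 1.42.0 (Wald test) or its size factors, upper-quartile normalization, other filters, a replicate block, the covariate and leaving out each library. The procedure was tested on simulated counts. Named genes are every annexin found and, per list, the 3 with the highest level and those at an unadjusted p under 0.05 (at most 5). DYSF, MYOF, LAMP2, PLA2G2A, PLA2G4B, CHMP1A, CHMP6 and the markers named beyond genes at 0 were chosen after their values were seen. The members, lists and alternatives were chosen with earlier results of these data known. Python 3.11.15 and matplotlib 3.10.9 made the plots.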

Additional observations from a re-analysis of the deposited data

How the results depend on the processing

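The count of the 8 annexins past the threshold was 0 in all 13 alternatives. Of 104 fold changes of single annexins under them, 0 were past the threshold, 1 (ANXA10 in DESeq2) had no adjusted p, and 16 had the other sign. With the olfactory receptor covariate the log2 fold changes were 0.35 for ANXA1, 0.27 for ANXA2, −0.19 for ANXA4, 0.34 for ANXA5, 0.23 for ANXA6, −0.14 for ANXA10 and 0.21 for ANXA11. ANXA4, at 0.00, also had the other sign with DESeq2's size factors (−0.017), DESeq2's Wald test (−0.064) and no filter (−0.044), and ranged from −0.17 to 0.19 with 1 library left out. ANXA11 was at 0.0021 with upper-quartile normalization, under which the median over all genes was 0.11 higher, and ranged from −0.32 to 0.010 with 1 library left out. The cause was not tested. All 16 group levels moved by less than 1 SD when CPM was taken by library total.

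Over all genes, 18 were called, 16 of them higher, against 63 (43 higher) with DESeq2's Wald test, 31 with no filter, 60 with the covariate, 21 (all higher) with upper-quartile normalization and 9 to 1855 with 1 library left out, the highest without complement replicate 3 and 327 without baseline replicate 1. A replicate block gave 2515 calls (14.4% of the genes tested), among them 0 of the 8 annexins above, ANXA9 (log2 fold change 0.73, adjusted p = 0.0311) and 7 of the 43 partner and repair genes (CTSL, LAMP1, ASAH1, CHMP2B, CTSB, IST1 and TRIM72). The testes were collected by litter, but the sources do not say whether the numbers pair the libraries. Deviations of libraries of the same number correlated at 0.456, 0.0302 and 0.482, and those of other numbers at −0.501 to 0.284. Baseline replicates 1 and 3 each correlated best with the complement library of their own number, and baseline replicate 2 with complement replicate 3 (0.0665). Whether the libraries are paired was not tested. With 1 library left out, 0 to 4 of the 43 were called, the 4 being LAMP1, CTSB, LAMP2 and ANO6 without complement replicate 3, where 10.1% of all genes were called. The ANXA2 to S100A10 log2 difference was −0.46 to −0.21 with 1 library left out and −0.34 in pairs of the same number (replicate block, exact permutation p = 0.25, the smallest 3 pairs allow). ANXA10 rests on 10 to 23 counts per library.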
